A study of Homo sapiens with 4 samples.

Results

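The 4 genes for ID proteins, the classical transcription targets of BMP signalling, and 6 genes for BMP ligands, BMP receptors and the inhibitory SMAD7 were followed in Helz-null HEK293T cells. HELZ is a putative RNA helicase. The 10 genes were chosen by symbol from the 27011 genes of the count table: ID1, ID2, ID3 and ID4, the ligands BMP4 and BMP7, the receptors BMPR1A, BMPR1B and BMPR2, and SMAD7. HEK293T cells are an established line from human embryonic kidney. RNA-Seq had been performed on 2 libraries of wild type (WT) cells and 2 libraries of a Helz-null line, in which Cas9 editing left a frameshifting deletion in helz. Both lines were plated in the same way the day before harvest, the labels name no treatment, and the replicates are biological per the methods of the study. The p-values measure the spread between these libraries. There was a single Helz-null line, so the effect of the deletion and other differences between that line and the WT cells cannot be told apart. Whether the line is a single clone is not given in the sources used here.

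The clearest change was in ID4, whose mRNA was 1.44-fold higher in Helz-null cells, whereas ID3 mRNA was 0.881 times the WT level. The mRNAs of the receptors BMPR1A and BMPR2 were also lower, at 0.879 and 0.897 times the WT level, but both calls were lost in 6 of 16 alternatives, among them the fit without WT replicate 2. ID1, ID2, BMP4, BMP7 and SMAD7 did not pass the threshold, and BMPR1B was too low to be among the tested genes. In bulk RNA, fewer cells that make an mRNA and less mRNA per cell cannot be told apart.

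BMPs are secreted ligands of the TGF-beta superfamily. They bring together type I receptors, such as BMPR1A and BMPR1B, and type II receptors, such as BMPR2, and the type I receptor then phosphorylates SMAD1, SMAD5 or SMAD9, which enter the nucleus with SMAD4. Among the genes that these SMADs switch on are the ID genes and the inhibitory SMAD6 and SMAD7, which dampen the pathway. ID proteins have a helix-loop-helix domain but no basic DNA-binding region, so they hold E proteins and other bHLH transcription factors away from DNA, and they are known for keeping neural and other progenitors from differentiating.

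On GRCh37 (hg19), with the strand of each gene, the ID genes are ID1 (chr20:30193086-30194318, plus), ID2 (chr2:8818975-8824591, plus), ID3 (chr1:23884417-23885992, minus) and ID4 (chr6:19837601-19842428, plus). The other genes are BMP4 (chr14:54416454-54425479, minus), BMP7 (chr20:55743809-55841697, minus), BMPR1A (chr10:88516353-88692582, plus), BMPR1B (chr4:95679106-96079599, plus), BMPR2 (chr2:203241050-203432474, plus) and SMAD7 (chr18:46446223-46477335, minus).

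Library totals ranged from 41745401 to 70464140 counts. Values per library are given as CPM, the counts scaled to a common total of the tested genes after TMM adjustment, or as FPKM, which are these CPM per kilobase of the deposited gene width and allow levels of different genes to be compared. A log2FC is the log2 ratio of Helz-null to WT. Genes were called at an FDR (adjusted p of edgeR's quasi-likelihood test) under 0.005, the threshold of the study, over 10978 tested genes. HELZ, the edited gene, was lower in both Helz-null libraries, with 1528 and 2641 counts, against 6268 and 4261 counts with WT RNA (log2FC -1.44, adjusted p = 2.13e-27, edgeR). Of 10 markers listed for HEK293T cells, 8 were above 2 FPKM in every library. The summed level of 6 fibroblast markers was 2.71 to 2.85 FPKM in WT and 2.78 to 3.003 FPKM in Helz-null libraries. Of these markers, 4 were under 0.1 FPKM throughout and 1 was above 2 FPKM in every library. Of 5 hepatocyte markers 4 were under 0.1 FPKM, and their sum was at most 0.16 FPKM. The sum of 6 blood cell markers was higher in both Helz-null libraries (1.18 to 1.28 FPKM in WT, 1.76 to 1.91 FPKM in Helz-null libraries). So was that of 5 markers of mature neurons (5.30 to 5.87 and 6.00 to 6.45 FPKM). Of the blood cell markers 3 (PTPRC, CD3E and HBB) were under 0.1 FPKM in every library. Of the neuron markers only SNAP25 was, and 1 was above 2 FPKM in every library. The part of the cells behind these sums in the results was not tested. DCN, HBB and TTR were at 0 counts in every library.

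Of the 10 genes, 9 were tested. Of these, 1 was up-regulated and 3 were down-regulated, against 13.9% and 15.5% of all tested genes called in these directions. The groups of libraries did not overlap for any of the 9 tested genes, as was the case for 70.6% of all tested genes. A lack of overlap was thus the common case in this comparison. The median log2FC of the 9 genes was 0.073, and that of all tested genes was -0.00091. Of the 9 tested genes, ID4 and BMP4 differed by more than 1.2-fold between cell lines, and BMP4 did not pass the threshold.

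Levels differed far more between the genes than between the cell lines. ID2 was the most abundant of the 10 mRNAs, with 88.5 to 95.6 FPKM over the 4 libraries, followed by ID3 with 53.0 to 62.0 FPKM and ID4 with 20.6 to 30.7 FPKM. Next came BMPR1A (15.4 to 18.7 FPKM) and BMP7 (14.6 to 16.5 FPKM), whose ranges overlapped, and ID1 (10.7 to 12.4 FPKM). BMPR2 (5.63 to 6.69 FPKM) and SMAD7 (5.16 to 5.70 FPKM) overlapped as well, and BMP4 (3.76 to 4.86 FPKM) lay below them. BMPR1B was lowest, with 0.788 to 1.01 FPKM. The median of the tested genes was 12.9 FPKM, so that ID2 ranked above 93.1% of them and BMP4 above 17.3%.

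Among the ligands, BMP4 directs mesoderm and early kidney and neural patterning, and BMP7 maintains nephron progenitors in the developing kidney. BMP7 gave 59.1 and 59.0 CPM with WT RNA, against 66.6 and 61.9 CPM with Helz-null RNA. Both Helz-null values were thus higher, by amounts that differed between the 2 Helz-null libraries. The log2FC of 0.12 (95% confidence interval 0.029 to 0.21) did not pass the threshold (adjusted p = 0.028, edgeR). Without Helz-null replicate 1 the log2FC of BMP7 was 0.069, and scaling by library size only gave 0.15 with an adjusted p of 0.0043 from edgeR, the single alternative in which BMP7 was called.

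BMP4 gave 7.98 and 7.39 CPM with WT RNA, against 9.56 and 9.19 CPM with Helz-null RNA. All values are low, between 303 and 641 counts, and both Helz-null libraries lay above both WT libraries. The log2FC was 0.28 (SE 0.10, 95% confidence interval 0.069 to 0.49), a 1.21-fold difference that was not called (adjusted p = 0.026, edgeR). BMP4 made up 21.1% ± 0.88 of the summed FPKM of BMP4 and BMP7 in WT and 23.0% ± 0.42 in Helz-null cells (SD, n = 2 per line).

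Among the receptors, BMPR1A and BMPR1B are type I receptors with kinase activity towards the BMP SMADs, and BMPR2 is a type II receptor with a long cytoplasmic tail. BMPR1A gave 59.8 and 67.5 CPM with WT RNA, against 55.9 and 55.6 CPM with Helz-null RNA. The 2 WT libraries stood further apart from each other than the lower of them stood from the Helz-null libraries. BMPR1A was nevertheless called down-regulated, with a log2FC of -0.19 (SE 0.047, adjusted p = 0.0014, edgeR). Without WT replicate 2 the log2FC was -0.10 and the call was lost (adjusted p = 0.10, edgeR). It was also lost without Helz-null replicate 2 (log2FC -0.18, adjusted p = 0.0098), with DESeq2 (adjusted p = 0.013) and with library size scaling (log2FC -0.15, adjusted p = 0.0066).

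BMPR2 showed the same arrangement of libraries, with 74.1 and 80.8 CPM from WT and 70.8 and 67.9 CPM from Helz-null RNA. WT replicate 2 was again the highest of the 4 libraries. Its log2FC was -0.16 (SE 0.042, adjusted p = 0.0024, edgeR), and without WT replicate 2 it was -0.096 (adjusted p = 0.072, edgeR). Leaving out Helz-null replicate 2 also ended the call, at a log2FC of -0.12 (adjusted p = 0.067), as did DESeq2 (adjusted p = 0.020) and library size scaling (log2FC -0.12, adjusted p = 0.014). BMPR2 made up 25.9% ± 0.43 of the summed FPKM of the 3 receptors in WT and 25.9% ± 0.51 in Helz-null cells (SD, n = 2 per line).

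BMPR1B had its higher values in the other line. WT replicates 1 and 2 had 294 and 198 counts (4.68 and 4.83 CPM), and the Helz-null replicates had 248 and 420 counts (6.00 and 6.02 CPM). The Helz-null libraries were both higher, but the gene was not in the list of tested genes, and its level was under 2 FPKM in every library. In a fit over the 20904 genes with at least 1 count, in which 18.2% of genes were called, the log2FC of BMPR1B was 0.34 (SE 0.12, 95% confidence interval 0.098 to 0.58) and was not called (adjusted p = 0.025, edgeR). BMPR1B accounted for 3.23% ± 0.18 of the summed receptor FPKM in WT and 4.56% ± 0.058 in Helz-null cells (SD, n = 2 per line).

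SMAD7 binds activated type I receptors and recruits ubiquitin ligases to them, and it inhibits BMP as well as TGF-beta signalling. SMAD7 gave 19.4 and 19.6 CPM with WT RNA, against 17.8 and 18.1 CPM with Helz-null RNA. The libraries of each line lay close together and the Helz-null libraries lay lower. The log2FC was -0.12, with a 95% confidence interval from -0.26 to 0.023, and SMAD7 was not called (adjusted p = 0.17, edgeR).

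ID4 is the ID protein best known from neural progenitors and the developing brain. ID4 gave 79.9 and 83.4 CPM with WT RNA, against 119 and 116 CPM with Helz-null RNA. The gap between the lines was many times the distance between replicates. Expression rose by a log2FC of 0.53 (SE 0.036, adjusted p = 2.51e-15, edgeR), a 1.44-fold increase with a 95% confidence interval from 1.37 to 1.51. Among all tested genes, 191 had a larger log2FC. The call held in each of 16 alternatives, with log2FC values from 0.49 to 0.56.

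ID3, which is strongly induced by BMPs in many cell types, moved the other way. It gave 76.9 and 75.9 CPM with WT RNA, against 65.7 and 68.6 CPM with Helz-null RNA. Both Helz-null libraries lay below both WT libraries. The log2FC was -0.18 (SE 0.040, adjusted p = 0.00026, edgeR), with a 95% confidence interval for the ratio from 0.832 to 0.932. ID3 was called in 14 of 16 alternatives. Without Helz-null replicate 1 the log2FC was -0.16 and the adjusted p 0.013 (edgeR), and ID3 was not called when a change beyond 1.2-fold was required.

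ID2, an inhibitor of E proteins with broad expression, was the most abundant of the family. It gave 124 and 121 CPM with WT RNA, against 127 and 130 CPM with Helz-null RNA. The log2FC of 0.073 (95% confidence interval 0.0050 to 0.14) was not called (adjusted p = 0.075, edgeR). An antisense gene, ID2-AS1, overlaps an exon of ID2 on the opposite strand and had 11 to 34 counts, against 4947 to 9087 counts for ID2. ID1, a target widely used as a readout of BMP activity, gave 13.7 and 13.2 CPM with WT RNA, against 15.3 and 14.1 CPM with Helz-null RNA. The Helz-null libraries were higher, by a log2FC of 0.12 with a 95% confidence interval from -0.042 to 0.29 (adjusted p = 0.23, edgeR). This interval of the ratio reaches 1.22, and ID1 had only 541 to 985 counts. Without Helz-null replicate 1 the log2FC of ID1 was 0.071, and without Helz-null replicate 2 it was 0.19.

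The make-up of the ID mRNAs therefore differed between the lines. The summed FPKM of the 4 genes was 183 ± 1.86 in WT and 191 ± 2.24 in Helz-null cells (SD, n = 2 per line). ID4 supplied 11.2% and 11.8% of this sum with WT RNA, against 16.2% and 15.6% with Helz-null RNA. ID3 supplied 33.6% and 33.7% in WT and 28.0% and 28.8% in Helz-null cells. ID2 supplied 48.6% to 49.7% over the 4 libraries, and ID1 5.89% to 6.57%. No test was applied to these shares, which use the same counts as the comparison above.

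The sequences just upstream of the canonical transcripts of the ID genes are shown because these genes share BMP responsiveness but differed in direction here. Each line gives the 250 bases before the start of the canonical GENCODE transcript on GRCh37 (hg19), in the direction of the gene. The gene intervals given above start earlier for ID1 and ID2. The ID2 window therefore lies wholly, and the ID1 window by its last bases, inside the interval of its gene. ID1 is at chr20:30192842-30193091 on the plus strand, ID2 at chr2:8821936-8822185 on the plus strand, ID3 at chr1:23885993-23886242 on the minus strand and ID4 at chr6:19837351-19837600 on the plus strand. Capitals mark GTCT, the core of the SMAD binding element, or its complement AGAC, and the TATA box letters TATAAA on either strand.
ID1: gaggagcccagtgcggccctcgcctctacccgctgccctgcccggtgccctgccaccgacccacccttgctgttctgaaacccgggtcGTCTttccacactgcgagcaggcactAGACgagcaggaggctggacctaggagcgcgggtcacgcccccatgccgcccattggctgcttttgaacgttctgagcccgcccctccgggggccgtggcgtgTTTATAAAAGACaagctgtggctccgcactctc
ID2: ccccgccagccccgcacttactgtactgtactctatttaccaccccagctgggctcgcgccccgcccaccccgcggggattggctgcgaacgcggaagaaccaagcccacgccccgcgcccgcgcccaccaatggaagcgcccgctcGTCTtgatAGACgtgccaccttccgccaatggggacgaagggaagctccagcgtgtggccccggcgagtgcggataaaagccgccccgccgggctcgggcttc
ID3: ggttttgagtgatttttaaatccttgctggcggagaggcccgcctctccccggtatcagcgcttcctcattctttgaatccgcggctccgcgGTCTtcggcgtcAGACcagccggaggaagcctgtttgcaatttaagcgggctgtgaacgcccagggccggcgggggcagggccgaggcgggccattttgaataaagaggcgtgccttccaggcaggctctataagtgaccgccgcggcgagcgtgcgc
ID4: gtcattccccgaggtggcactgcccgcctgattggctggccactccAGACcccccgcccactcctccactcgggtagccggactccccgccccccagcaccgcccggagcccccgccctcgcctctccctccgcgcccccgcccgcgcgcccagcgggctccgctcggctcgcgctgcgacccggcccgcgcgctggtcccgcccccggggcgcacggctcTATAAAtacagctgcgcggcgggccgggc

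GTCT on either strand was found 3 times for ID1, 2 times each for ID2 and ID3, and 1 time for ID4. Of the 250-base windows of 10868 tested genes, 73.6% hold it. The longer palindrome GTCTAGAC, found in 0.12% of windows, and the GC-rich BMP SMAD element GGCGCC, found in 28.9%, were in none of the 4 ID windows. TATAAA occurs in 4.42% of the windows of tested genes. It was found for ID4 with its first base at -29, counted from the transcript start, and for ID1 on both strands in overlapping positions at -33 and -31, the latter next to an AGAC with which it shares no base. The E-box CANNTG, which E proteins bind, was in the windows of ID2 and ID4 and in 49.6% of all windows. Of the other genes, BMPR1A had 3 and BMPR2 had 1 GGCGCC, BMPR2 and SMAD7 had 4 GTCT each, BMPR1B had 1, and BMP4, BMP7 and BMPR1A had none. All motifs were searched on both strands. These matches describe letters in a short window and say nothing of binding.

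The coding sequences of the ID genes are short and rich in G and C. ID4 has a CDS of 486 nt with 73.0% GC, higher than 99.3% of the tested genes. ID1 follows with 67.3% and ID3 with 63.9%, and ID2 has 55.3%. The median of 10608 tested genes with a coding transcript was 52.1%. BMPR1A (44.3%), BMPR1B (44.9%) and BMPR2 (45.4%) lie below that median, BMP4 (57.0%), BMP7 (62.0%) and SMAD7 (63.7%) above it. Of the 4 called genes, the up-regulated ID4 thus had the highest GC content, whereas the down-regulated ID3 was also GC-rich and the down-regulated BMPR1A and BMPR2 were not.

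The untranslated regions differ as much. ID4 has a 3′ UTR of 3002 nt, against 416 nt for ID1, 784 nt for ID2 and 515 nt for ID3, and against a median of 1351 nt. BMPR2 has one of 7803 nt, longer than those of 97.7% of tested genes, and BMPR1A one of 4250 nt. The pentamer ATTTA, the core of AU-rich elements that shorten the life of many mRNAs, occurs 6 times in ID4, 3 times in ID2, 1 time each in ID1 and ID3, 17 times in BMPR1A and 34 times in BMPR2. Per kilobase of 3′ UTR this is 2.00 for ID4, 1.94 for ID3 and 4.36 for BMPR2, with a median of 1.74 for tested genes. BMP4, with 3 ATTTA in only 296 nt, had the highest density of the 10 genes, at 10.1 per kilobase.

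Genes of some chromosome segments were shifted together in the Helz-null line, so each gene was set beside the tested genes that start within 5 Mb of it. The 20 neighbours of ID4 on chromosome 6 had a median log2FC of -0.0099, and none of them was as high as ID4. The 102 neighbours of ID3 on chromosome 1 had a median of 0.0035, and 8 of them were lower than ID3. For BMPR1A on chromosome 10 the median of 23 neighbours was -0.036, and for BMPR2 on chromosome 2 that of 40 neighbours was -0.019. With the median of the neighbours subtracted, ID4 (log2FC 0.54, adjusted p = 3.43e-15) and ID3 (log2FC -0.19, adjusted p = 0.00025) remained called by edgeR. BMPR1A (log2FC -0.15, adjusted p = 0.010) and BMPR2 (log2FC -0.14, adjusted p = 0.0077) did not. Here and in the subtractions below, the median came from the same data and was entered as a fixed value. The adjusted p-values therefore leave out its uncertainty and the spread of the neighbours. The neighbour medians of the other 6 genes lay between -0.042 for SMAD7 and 0.044 for ID2. After the subtraction ID2 had a log2FC of 0.029 (adjusted p = 0.52) and SMAD7 of -0.078 (adjusted p = 0.40, edgeR).

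The rest of the pathway was followed with 7 lists of other genes, 121 in all, of which 65 were tested. Of these, 14 were up-regulated and 10 down-regulated. These are 21.5% and 15.4%, beside the 13.9% and 15.5% of all tested genes given above, and the median log2FC of the 65 genes was 0.037. The number up-regulated was 8 without Helz-null replicate 1, and 9 without WT replicate 1, without Helz-null replicate 2 or with DESeq2. In these fits the share of all tested genes called up was also lower, at 9.65%, 12.3%, 9.36% and 10.04%, in the same order.

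Of 15 other BMP and GDF ligands only 4 were tested and none was called, with log2FC values from -0.029 to 0.30. BMP10, BMP15 and GDF2 had 0 counts in every library. Among the ligands below the tested level, BMP2, a close relative of BMP4, and GDF6 were picked out here after their values were seen. BMP2 had 213 and 189 counts with WT RNA, against 83 and 130 counts with Helz-null RNA, and in the fit over genes with at least 1 count its log2FC was -1.04 (adjusted p = 3.45e-09, edgeR). GDF6 was higher, with 90 and 80 against 114 and 219 counts (log2FC 0.84, adjusted p = 2.9e-05, edgeR). Extracellular antagonists and modulators rose in 3 of 7 tested genes, beside 13.9% of all tested genes, and fell in none, with a median log2FC of 0.11. In the fit over the 20904 genes with at least 1 count, in which 18.2% of genes were called, 3 of 20 genes of this list were up-regulated and 3 down-regulated. The latter, CHRDL1 (log2FC -2.63), TLL1 (log2FC -1.67) and BMPER (log2FC -0.58, adjusted p = 0.0016, edgeR), an extracellular BMP-binding regulator, were named after their values were seen. NOG, which encodes the BMP antagonist noggin, rose from 4.29 ± 0.58 to 7.03 ± 0.63 CPM (SD, n = 2 per line). The log2FC was 0.71 (SE 0.13, adjusted p = 2.05e-05, edgeR), and it was between 0.59 and 0.87 with single libraries left out. BMP1, a protease that cleaves the BMP antagonist chordin and procollagens and is not itself a BMP-type ligand, rose from 10.99 ± 0.36 to 14.6 ± 0.58 CPM (log2FC 0.41, adjusted p = 0.00011, edgeR), and its call was lost without Helz-null replicate 2 (adjusted p = 0.0075). FSTL1, a secreted follistatin-related glycoprotein, rose from 142 to 160 CPM (log2FC 0.17, adjusted p = 2.77e-05, edgeR).

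Other receptors and co-receptors fell in 4 of 7 tested genes, beside 15.5% of all tested genes, and rose in none, with a median log2FC of -0.24. The type II receptor ACVR2B fell from 71.2 ± 3.77 to 56.0 ± 5.03 CPM (SD, n = 2 per line; log2FC -0.35, adjusted p = 1.23e-07, edgeR). The co-receptors of the repulsive guidance molecule family RGMA (log2FC -0.24) and RGMB (log2FC -0.29) and their receptor NEO1 (log2FC -0.24) were lower too. For 3 of the 4 genes the chromosomal neighbours were lower as well. The neighbour median was -0.27 for ACVR2B on chromosome 3, -0.34 for RGMA and -0.39 for NEO1 on chromosome 15, but 0.058 for RGMB on chromosome 5. With these medians subtracted, ACVR2B (log2FC -0.084, adjusted p = 0.17) and RGMA (log2FC 0.10, adjusted p = 0.18) were not called, NEO1 was called in the other direction (log2FC 0.15, adjusted p = 0.0012), and RGMB (log2FC -0.35, adjusted p = 1.95e-06, all from edgeR) remained down-regulated. The list then held 1 gene up and 2 down, and its median was -0.0013. With a library left out, RGMA was called only without WT replicate 1, and not by DESeq2 (adjusted p = 0.011). BAMBI, a pseudoreceptor that blocks BMP and TGF-beta signalling, had a log2FC of -0.21 and was not called (adjusted p = 0.0082, edgeR), and was called after the subtraction (log2FC -0.24, adjusted p = 0.0036, edgeR). In the fit over genes with at least 1 count, 5 of 10 genes of this list were down-regulated and none up-regulated. In that fit 9.70% of all genes were called down. Among the 5 was ENG (log2FC -1.65, adjusted p = 0.00047, edgeR), named after its value was seen.

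Of 17 tested SMADs and SMAD regulators, 2 were up-regulated and 3 down-regulated, beside 13.9% and 15.5% of all tested genes, with a median log2FC of -0.030. The signal-transducing SMAD1 (log2FC -0.23, adjusted p = 0.0051), SMAD5 (log2FC -0.080, adjusted p = 0.043) and SMAD4 (log2FC -0.042, adjusted p = 0.50, all from edgeR) were not called, nor was SMAD9, named here after its value was seen, with a log2FC of 0.11 (adjusted p = 0.080, edgeR). With the neighbour median of -0.092 subtracted, the log2FC of SMAD1 was -0.14 (adjusted p = 0.097, edgeR). SMAD6, the inhibitory SMAD that acts mainly on BMP signalling, fell from 16.0 ± 0.41 to 12.3 ± 0.10 CPM (SD, n = 2 per line; log2FC -0.39, adjusted p = 0.00014, edgeR). Its neighbours on chromosome 15 had a median of -0.24, and with that subtracted its log2FC was -0.14 (adjusted p = 0.15, edgeR). SKIL, a corepressor of SMADs, fell (log2FC -0.38). So did TOB2 (log2FC -0.21), an antiproliferative protein of the BTG/TOB family, which completes the 3 genes and was named after its value was seen. The ubiquitin ligase NEDD4L (log2FC 0.42) and the phosphatase CTDSP2 (log2FC 0.23) rose. NEDD4L had 1.89 and 1.95 FPKM with WT RNA, against 2.59 and 2.55 FPKM with Helz-null RNA. It was thus above 2 FPKM, the selection level of the study, only in the line where it was higher. Its place among the tested genes, and so among those called up, may rest on that line alone. With the neighbour medians subtracted, the list held 3 genes up and 3 down. SMAD6 was then no longer called, whereas the phosphatases CTDSPL (log2FC 0.34, adjusted p = 1.58e-07) and PPM1A (log2FC -0.17, adjusted p = 0.0040, edgeR), named after their values were seen, were.

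Other transcription targets rose in 3 of 13 tested genes, beside 13.9% of all tested genes, and fell in none, with 11 log2FC values above 0 and a median of 0.085. JUNB, an AP-1 transcription factor that also responds to many other stimuli, rose from 8.30 ± 0.18 to 13.7 ± 0.61 CPM (SD, n = 2 per line; log2FC 0.72, adjusted p = 2.87e-08, edgeR), the largest log2FC among the 13 tested genes. HOOK2 overlaps JUNB on the opposite strand, and since the use of strand in counting is not given in the sources used here, reads of the overlap cannot be assigned. HOOK2 had 816 and 528 counts with WT RNA, against 569 and 814 counts with Helz-null RNA. JUNB had 529 and 335 against 585 and 927 counts. The part of HOOK2 reads in the JUNB counts was not tested. MSX1 (log2FC 0.19) and the netrin receptor UNC5B (log2FC 0.14) rose less, and with DESeq2 neither was called (adjusted p = 0.017 and 0.010). With the neighbour medians subtracted, 2 of the 13 genes were up-regulated, beside 12.3% of all tested genes. MSX1 was then not called (log2FC 0.17, adjusted p = 0.0099, edgeR). MSX1 was called in 0 and UNC5B in 2 of the 4 fits with a library left out (highest adjusted p 0.035 and 0.064, edgeR), UNC5B being lost without WT replicate 1 or Helz-null replicate 1, whereas JUNB was called in all 4.

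Of the E proteins and other bHLH partners of ID proteins, 4 of the 6 tested rose and 1 fell, beside 13.9% and 15.5% of all tested genes, with a median log2FC of 0.16. The E proteins TCF3 (log2FC 0.13, adjusted p = 0.0014), TCF4 (log2FC 0.20, adjusted p = 0.0043) and TCF12 (log2FC 0.19, adjusted p = 0.0016, all from edgeR) were each higher by less than 1.2-fold. TWIST1 rose (log2FC 0.41) and HAND1 fell (log2FC -0.26). With the neighbour medians subtracted, 3 of the 6 were up-regulated and 1 down-regulated, beside 12.3% and 13.0% of all tested genes. TCF3 was then not called (log2FC 0.10, adjusted p = 0.010, edgeR). The up-regulated calls depended on single libraries, whereas the list median log2FC stayed between 0.15 and 0.18 with a library left out. Without Helz-null replicate 1 none of the 6 genes was up-regulated, without WT replicate 1 there was 1, without Helz-null replicate 2 there were 2, and DESeq2 called 1. The shares of all tested genes called up in these fits, given above, were between 9.36% and 12.3%. HAND1 lost its call without Helz-null replicate 2 (adjusted p = 0.013, edgeR).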

How the data were processed

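Libraries came from the TruSeq RNA Sample Prep Kit. As stated by the authors, rRNA reads were filtered out with Bowtie2, the rest were aligned to hg19 by TopHat2 as pairs, and QuasR gave counts per gene, deposited without normalization beside a gene width in bases. Versions, annotation, strand use and the counting of mates are not given in the sources used here. A deposited comparison by the authors holds log2 values (fold change and CPM) and p-values with their FDR. These were not used, and only its 10978 gene names served as the list of tested genes. The study states a selection by FPKM above 2.

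The test was edgeR 4.0.16 under R 4.3.3 (TMM, estimateDisp, glmQLFit, glmQLFTest, genotype as the only term), with Benjamini-Hochberg adjustment over all tested genes and calls at an FDR under 0.005. Standard errors and 95% confidence intervals came from the log2FC and the F statistic. DESeq2 1.42.0 was an alternative. A floor of 3 counts corresponds to 0.043 to 0.072 CPM, and covers counting error only. The 2 WT libraries differed by more than counting noise (chi-square per degree of freedom 4.15), as did the 2 Helz-null libraries (3.01), and each was kept as a replicate. Gene positions, CDS and UTRs came from GENCODE on GRCh37, the build named hg19 by the authors. Symbols placed 10379 tested genes and older symbols 517 more, leaving 82 without a position. Chromosomal neighbours were tested genes starting within 5 Mb. The fit was also run on simulated data, and the outcome is not reported here. Members, lists and tests were chosen with earlier results of these data known. Genes named by rule were the 10 genes, HELZ, up to 4 called genes of each list with the largest absolute log2FC, and NOG, SMAD1, SMAD5, SMAD4, SMAD6, BAMBI, TCF3, TCF4 and TCF12. Pathway genes outside this rule whose log2FC is given were named after their values were seen, as stated where they appear. Alternatives were other scalings (DESeq2's size factors, upper quartile, library size only), other gene filters, a replicate block, counts divided by 2, thinned libraries, a fold change of 1.2 in the test, subtraction of the neighbour median, and single libraries left out. Figures were drawn with matplotlib 3.10.9 in Python 3.11.15.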

Additional observations from a re-analysis of the deposited data

How the results depend on the processing

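The call of ID4 held in all 16 alternatives run, and no log2FC of the 10 genes or of HELZ changed sign in the alternatives each was fitted in, 13 for BMPR1B and 16 for the others. The number of the 10 genes called up was 2 with library size scaling. The number called down was 1 with library size scaling, 1 with DESeq2, 1 with the neighbour median subtracted and 0 against a fold change of at least 1.2, and with single libraries left out it was between 1 and 3 (1 without WT replicate 2, 1 without Helz-null replicate 2). With a library left out, the lone sample of its group is assumed to vary like the other group. The number of genes called up in the pathway lists was 9 with DESeq2, 2 against the fold change of 1.2 and between 8 and 14 with single libraries left out. The number called down was 1 against that fold change, between 8 and 12 with single libraries left out, and 18 over all genes with at least 1 count, a fit that takes in list genes below the tested level. Other causes were not tested. Library size scaling moved the median log2FC of all tested genes to 0.032, and 61.5% of its calls were up-regulated genes, against 47.3% with TMM. The labels give replicate numbers but no shared batch, and deviations of same-numbered libraries were nearly uncorrelated (r = 0.020 over 10762 genes, which are not independent). With the replicate block, 1 of the 10 genes was called up and 3 down, and 14 and 13 genes of the pathway lists. Dividing the counts by 2 or thinning to the smallest library left the calls of the 10 genes at 1 up and 3 down. With 2 libraries per line, no library could be tested as deviating.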

Other observations

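The related TGF-beta and activin branch signals through SMAD2 and SMAD3. Of 26 listed genes 11 were tested, and 2 were up-regulated and 2 down-regulated, with a median log2FC of 0.056. These shares, 18.2% each, are near the 13.9% and 15.5% of all tested genes. The number up-regulated was 4 without WT replicate 2 and 1 without Helz-null replicate 2. The type II TGF-beta receptor TGFBR2 had the largest absolute log2FC of the 65 tested pathway genes. It fell from 19.7 ± 0.22 to 11.6 ± 1.13 CPM (SD, n = 2 per line), a log2FC of -0.75 (adjusted p = 3.39e-10, edgeR). Its neighbours on chromosome 3 had a median log2FC of -0.16, and with that subtracted TGFBR2 remained down-regulated (log2FC -0.59, adjusted p = 1.49e-07, edgeR). SMAD3, which transmits TGF-beta signals, fell (log2FC -0.24, adjusted p = 0.00022, edgeR), close to the median of -0.25 of its neighbours on chromosome 15, and with that subtracted its log2FC was 0.0069 (adjusted p = 0.93, edgeR). LTBP1, a matrix protein that holds latent TGF-beta, rose (log2FC 0.26, adjusted p = 9.85e-05, edgeR). GDF1 rose by a log2FC of 0.41, but it overlaps CERS1 on the same strand, so its reads cannot be told apart from those of CERS1. SMAD3 lost its call without Helz-null replicate 1 (adjusted p = 0.0094, edgeR) and LTBP1 without Helz-null replicate 2 (adjusted p = 0.0067, edgeR).

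Several pathway genes too low to be among the tested ones differed more than any tested gene of the lists. They were picked out after their values were seen, from the fit over genes with at least 1 count. TAL1, a bHLH factor of blood progenitors, had 159 and 88 counts with WT RNA, against 0 and 4 counts with Helz-null RNA. The BMP antagonist gene CHRDL1 had 115 and 92 against 13 and 23 counts (log2FC -2.63, adjusted p = 1.99e-18, edgeR), and TLL1, a protease related to BMP1, had 129 and 105 against 29 and 51 counts (log2FC -1.67, adjusted p = 1.03e-11, edgeR). ENG, from the list of receptors and co-receptors, had 57 and 29 against 10 and 19 counts (log2FC -1.65, adjusted p = 0.00047, edgeR). ATOH8, a bHLH factor that BMP signalling induces, was higher, with 56 and 45 against 75 and 187 counts (log2FC 1.23, adjusted p = 1e-07, edgeR).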
